A study of Mus musculus with 4 samples.

Results

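The 9 genes described here were grouped as retinoid synthesis and response genes: *Aldh1a1*, *Aldh1a2*, *Aldh1a3*, *Aldh1a7*, *Crabp1*, *Crabp2*, *Stra6*, *Rarb* and *Cyp26b1*. They were read on 11 of the 45101 probe sets, and are 9 of the 18194 genes that have a probe set with a single symbol. *Aldh1a2* and *Aldh1a7* were chosen by their large log2 differences between these arrays, and the list as a whole was drawn up with results of these arrays known, so every value below is a description. The RNA came from mammary fibroblasts of 16-week-old female FVB/N mice, cultured to the second passage, with 1 array per genotype. The genotypes were Ets2db/loxP (normal, *Ets2* present), FspCre;Ets2db/loxP (normal, *Ets2* null), ErbB2;Ets2db/loxP (*ErbB2*, *Ets2* present) and ErbB2;Fsp-cre;Ets2db/loxP (*ErbB2*, *Ets2* null). All of them, controls included, carry the *Ets2db* allele, a conventional knockout of the DNA-binding domain, so the controls have a single intact copy. Cre was driven by the promoter of Fibroblast Specific Protein 1, and *ErbB2* by the MMTV promoter in mammary epithelium, so that *ErbB2* fibroblasts are cells from glands with an oncogene in their epithelium. The labels do not say how many mice gave each RNA.

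Retinoic acid is made from vitamin A. STRA6 takes up retinol from its carrier in blood, alcohol and retinol dehydrogenases turn retinol into retinal, and ALDH1A1, ALDH1A2 and ALDH1A3 oxidise retinal to retinoic acid. CRABP1 and CRABP2 bind the acid in the cytoplasm. RARB is a nuclear receptor that the acid activates, and its gene is itself a classical target of the acid. CYP26B1 degrades retinoic acid, and its gene also responds to it. In the mammary gland retinoic acid is known for limiting growth and favouring differentiation, and ALDH1 activity is widely used to mark progenitor cells.

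Of the 9 genes, *Aldh1a1*, *Aldh1a7*, *Cyp26b1* and *Rarb* were highest in normal *Ets2* null fibroblasts and lowest in *ErbB2* *Ets2* null fibroblasts. *Aldh1a1* had the widest span, 9.51-fold between those arrays. *Aldh1a2* differed from them and was highest in *ErbB2* *Ets2* null and lowest in *ErbB2* *Ets2* present fibroblasts. In the 2 arrays with *Ets2* present, 8 of the 9 genes lay within 2-fold of each other, *Aldh1a2* being the exception.

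**Figure D1:**
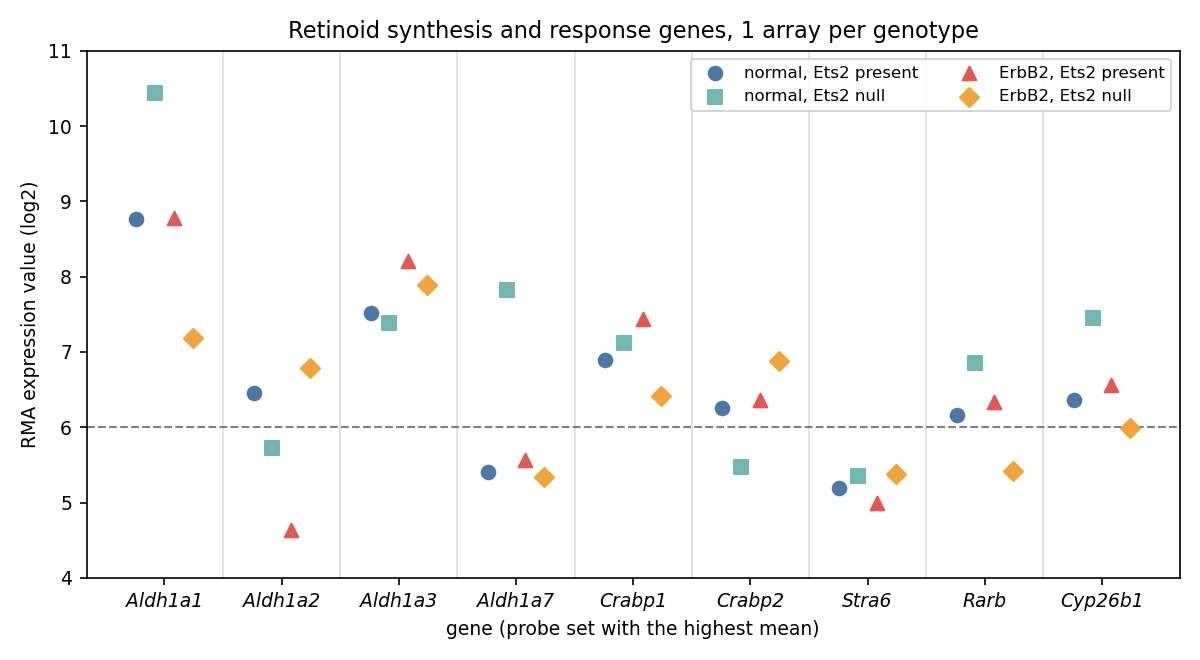
RMA expression value (log2, y axis) of each gene (x axis, probe set with the highest mean) on the 4 arrays, 1 point per array, with a dashed line at log2 6. *Aldh1a1*, *Aldh1a7*, *Rarb* and *Cyp26b1* have their highest point in normal *Ets2* null fibroblasts, while *Aldh1a2* runs from 4.63 to 6.79, its ends being the *ErbB2* arrays; heights of different genes are not comparable.

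Values are log2 expression levels from RMA. A level under log2 6 may be background, so a fold is given only where both levels are at 6 or more, and other differences are not exact. The arrays were alike in distribution, with medians of 5.51 to 5.54, and correlated over all probe sets at 0.988 to 0.993 (Pearson's r). No genotype was repeated, so that the only scale for a difference is the robust SD of all genes in the same comparison, which was 0.213 to 0.271. *Ets2* did not check the genotypes, since its brightest probe set lay at 8.14 and 8.35 in normal and at 8.34 and 8.31 in *ErbB2* fibroblasts with and without *Ets2*, and its position relative to the deleted part is unknown here. All 12 fibroblast markers reached log2 6, and their summed level was 16.40 to 16.67 on the log2 scale on the 4 arrays. The sum rests mostly on the brightest markers. Their median level was 12.65 and 11.84 in normal and 12.98 and 12.51 in *ErbB2* fibroblasts with and without *Ets2*. In normal fibroblasts 9 of the 12 were lower without *Ets2* and 3 higher, with a median difference of -0.44.

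*Aldh1a1*, a retinal-oxidising enzyme that is abundant in liver, had a level of 8.77 in normal *Ets2* present, 10.43 in normal *Ets2* null, 8.78 in *ErbB2* *Ets2* present and 7.18 in *ErbB2* *Ets2* null fibroblasts. The arrays with *Ets2* were thus almost equal, and the *Ets2* null arrays lay on either side of them. Without *Ets2* it was 3.16-fold higher in normal and 3.02-fold lower in *ErbB2* fibroblasts, and these differences ranked 31 from the highest and 115 from the lowest of 18194 genes. It was the only one of the 9 genes past 2-fold in opposite directions in the Ets2 comparisons. The Ets2 difference in *ErbB2* fibroblasts minus that in normal fibroblasts was -3.26 on the log2 scale, against a robust SD of 0.330 over all genes, and was not tested.

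*Aldh1a7*, a close relative of *Aldh1a1*, was at 5.41, 7.82, 5.56 and 5.34 in the same order of arrays. Normal *Ets2* null fibroblasts were the only array above log2 6. The difference there was 2.41, and in *ErbB2* fibroblasts it was -0.23, smaller than the robust SD of all genes there. A single probe set reads each of *Aldh1a1* and *Aldh1a7*, and whether either also binds the transcript of its neighbour could not be checked. In the RefSeq annotation of mouse GRCm38.p6 the pair are neighbours on chromosome 19 with no gene between them. Their upstream sequences are shown because both genes were higher without *Ets2* in normal fibroblasts. Both stretches are the 120 bases before the annotated start, 5′ to 3′, with their longest shared run in capitals, from chr19:20601848-20601967 on the plus strand (the better match of the 2 *Aldh1a1* starts in the table) and chr19:20727557-20727676 on the minus strand.

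Aldh1a1: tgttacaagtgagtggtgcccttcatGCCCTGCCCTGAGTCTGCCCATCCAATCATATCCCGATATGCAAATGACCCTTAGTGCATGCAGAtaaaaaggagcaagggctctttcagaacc

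Aldh1a7: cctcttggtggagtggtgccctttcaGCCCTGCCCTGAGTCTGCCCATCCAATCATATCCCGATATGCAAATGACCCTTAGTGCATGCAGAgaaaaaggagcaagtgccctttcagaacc

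The shared run is 65 bases long, and 105 of the 120 positions (87.5%) are identical without gaps. It holds the letters CCAAT, found on either strand in 37.4% of the 32851 promoter windows of 300 bases in the table, and ATGCAAAT, found in 1.74%. Both were picked after the run was seen, and both are also in the *Aldh1a2* window. In *ErbB2* fibroblasts *Aldh1a7* lay below log2 6 on both arrays, so that a decrease like that of *Aldh1a1* may have been missed. Levels below 6 could still differ between these arrays, as for *Cdh1*, at 5.26 with and 2.84 without *Ets2*.

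*Aldh1a2*, the main retinoic acid producing enzyme of the embryo and of mesothelium, was at 6.45 and 5.72 in the normal pair (*Ets2* present, then null) and at 4.63 and 6.79 in the *ErbB2* pair. Its Ets2 differences were opposite in sign to those of *Aldh1a1*, with differences of -0.73 in normal and 2.15 in *ErbB2* fibroblasts. Between the arrays with *Ets2*, the *ErbB2* minus normal difference was -1.82 on the log2 scale. Levels below 6 take part in each of these differences. None of 8 mesothelial markers reached log2 6 on any array, and their medians were between 4.04 and 4.43.

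*Aldh1a3*, another retinal-oxidising enzyme, differed least among those at log2 6 or more on all arrays. Its brightest probe set was at 7.52, 7.39, 8.21 and 7.89, with both *ErbB2* arrays above both normal arrays. A second probe set, at 5.95, 6.16, 6.04 and 6.33, did not separate normal from *ErbB2* arrays, and the other, at 6.74, 6.88, 6.89 and 6.89, spanned 0.15. No difference reached 2-fold on any of the 3 probe sets.

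*Stra6*, the retinol transporter, differed least of the 9 genes and stayed below log2 6 on all 4 arrays, at 5.20, 5.35, 5.0 and 5.38. *Crabp1* was at 6.90, 7.11, 7.43 and 6.42, and so lowest in *ErbB2* *Ets2* null fibroblasts, 2.02-fold below *ErbB2* fibroblasts with *Ets2*. With a further quantile normalization that difference, -1.02, became -0.98 and fell short of 2-fold. *Crabp2*, which hands retinoic acid to its receptors, was at 6.26, 5.47, 6.36 and 6.88. It was lowest in normal *Ets2* null fibroblasts, where *Aldh1a1* was highest, and differed by 1.41 between the *Ets2* null arrays.

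*Cyp26b1*, the enzyme that clears retinoic acid, was at 6.36 and 7.45 in the normal pair, a 2.13-fold difference, and at 6.56 and 5.99 in the *ErbB2* pair. *Rarb*, the receptor, was at 6.16, 6.86, 6.34 and 5.41, which is 1.62-fold higher without *Ets2* in normal fibroblasts and a difference of -0.92 on the log2 scale in *ErbB2* fibroblasts. Both had the order of arrays seen for *Aldh1a1*, normal *Ets2* null above *ErbB2* with *Ets2*, then normal with *Ets2*, then *ErbB2* *Ets2* null. Their widest differences were those between the *Ets2* null arrays, -1.46 for *Cyp26b1* and -1.44 for *Rarb*.

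*Rarb* is the textbook case of a gene with a retinoic acid response element, and the 250 bases before its annotated start hold that element. They are printed 5′ to 3′ from the minus strand of chr14:16575477-16575726 in GRCm38.p6 (RefSeq), with the element, at bases -53 to -37 from the start, in capitals.

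Rarb: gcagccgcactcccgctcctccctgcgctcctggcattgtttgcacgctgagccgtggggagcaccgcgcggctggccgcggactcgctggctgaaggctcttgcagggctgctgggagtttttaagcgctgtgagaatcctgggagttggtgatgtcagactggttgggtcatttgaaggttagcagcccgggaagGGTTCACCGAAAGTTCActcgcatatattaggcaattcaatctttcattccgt

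The search was for any pair of hexamers in the same direction with a spacer of 5 bases, on either strand, where a hexamer was the core AGGTCA, its variant GGGTCA, the form AGTTCA or the form GGTTCA, and 32 of 32851 windows of 300 bases (0.0974%) hold such a pair. Of the 9 genes, 7 have a window in the table, and *Rarb* was the one with a pair. None of the 7 has a pair with a spacer of 1 or 2 bases. The ETS sequence CGGAAGT is in 6.42% of windows and in none of the 7. Its variant AGGAAGT is in 9.35% of windows and, of the 7, in that of *Rarb* alone. A match describes the letters of the window and is not evidence of binding.

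By comparison, 3 of the 9 genes passed 2-fold higher in normal *Ets2* null against normal *Ets2* present fibroblasts, *Aldh1a7*, *Aldh1a1* and *Cyp26b1*, and none passed lower. Over all genes, 0.621% passed higher and 0.357% lower. The median difference of the 9 genes was 0.22, while that of all genes was near 0. In *ErbB2* fibroblasts *Aldh1a2* passed 2-fold higher without *Ets2*, and *Aldh1a1* and *Crabp1* lower, where 0.341% of all genes passed higher and 1.74% lower. The median was -0.32 against 0.04 for all genes. Many genes of the array are near background, so the share was also taken over genes with the higher array at log2 6 or more. It was then 3 of 8 against 1.47% of all such genes in normal, and 3 of 7 against 3.28% in *ErbB2* fibroblasts. These contrasts took part in the choice of genes, so nothing is read from the excess.

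**Figure D2:**
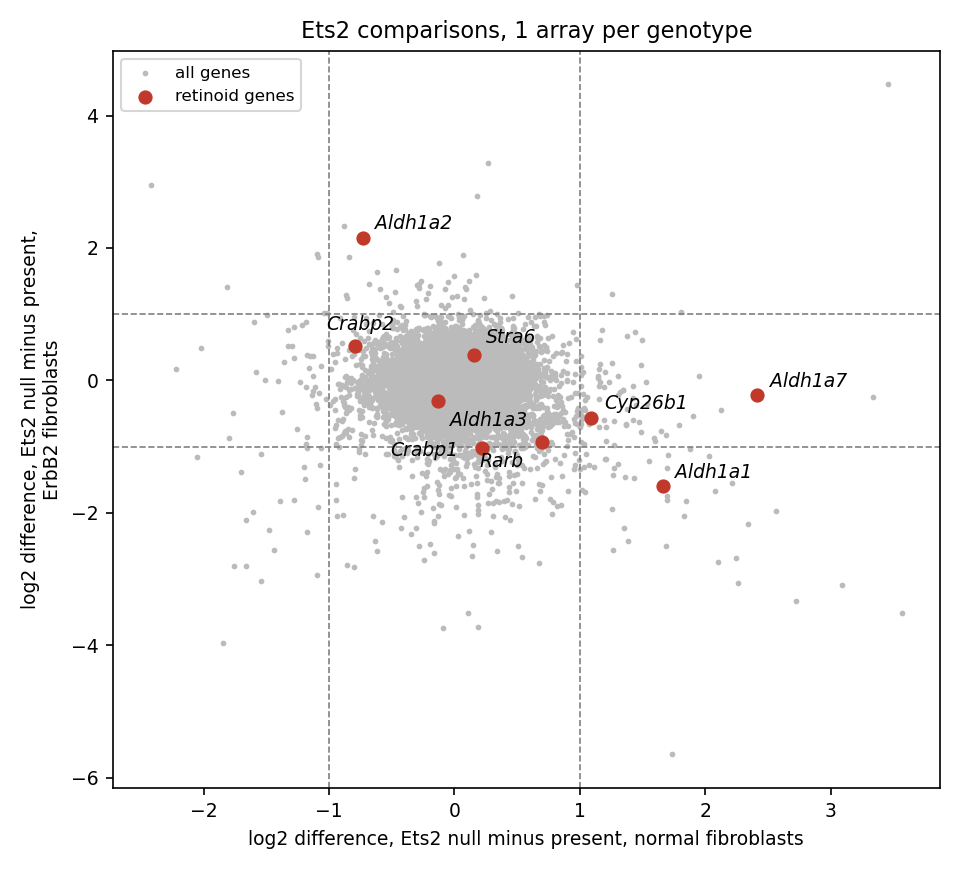
Ets2 comparison on the log2 scale (null minus present) in normal (x axis) and *ErbB2* (y axis) fibroblasts, where each point is a gene, red points are the 9 retinoid genes and dashed lines mark 2-fold. *Aldh1a1* lies at 1.66 and -1.59, and *Aldh1a2*, at -0.73 and 2.15, on the opposite side.

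The oncogene was compared within each *Ets2* status. This comparison shares its arrays with the Ets2 comparisons, so the same levels return here in another pairing. With *Ets2* present, 1 of the 9 genes passed 2-fold between *ErbB2* and normal fibroblasts, *Aldh1a2*, which was lower. Over all genes 0.83% passed higher and 0.17% lower, and among genes with the higher array at log2 6 or more the shares were 1 of 7 against 1.56%. Without *Ets2*, 6 of the 9 passed: *Aldh1a1*, *Aldh1a7*, *Cyp26b1* and *Rarb* lower, and *Crabp2* and *Aldh1a2* higher. Of all genes 1.51% passed lower and 0.544% higher, and at log2 6 or more it was 6 of 8 against 3.14%. Without *Aldh1a2* and *Aldh1a7*, which were chosen for their differences, the count of 6 became 4 and that of 1 became 0, and *Aldh1a7* reached log2 6 only in normal *Ets2* null fibroblasts. Nothing is read from these shares either. The difference for *Aldh1a1*, -3.25 on the log2 scale, ranked 6 from the lowest of 18194 genes. That for *Aldh1a7* was -2.49. Apart from *Aldh1a1*, every gene that passed without *Ets2* had its lower level under log2 6, so those differences are not exact. The medians of the 9 genes were 0.15 with *Ets2* and -0.70 without.

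Other retinoid genes, counting those of transport, metabolism, receptors, coregulators and response, were measured for 49 of 55 listed. Of the 49, 30 reached log2 6 on an array. The 49 include the 13 responsive genes that are described further below. Without *Ets2*, 1 of the 49 was 2-fold higher and none lower in normal fibroblasts, and none was higher and 4 lower in *ErbB2* fibroblasts. Over all genes 0.621% passed higher and 0.357% lower in normal, and 0.341% and 1.74% in *ErbB2* fibroblasts. With the higher array at log2 6 or more it was 1 of 30 against 1.47% in normal and 4 of 29 against 3.28% in *ErbB2* fibroblasts. The medians of the 49, -0.06 and 0.02, lay near those of all genes. None of the 9 measured receptors and coregulators on the list, which does not hold *Rarb*, passed 2-fold in any comparison. On the log2 scale over the 4 arrays *Rara* spanned 0.19, *Rxra* 0.22, *Rarg* 0.35, *Rxrg* 0.39 and *Rxrb* 0.45, while *Rarb* spanned 1.44. Of 10 measured genes of uptake, transport and storage, *Rbp4*, the retinol carrier, was 3.66-fold lower in *ErbB2* *Ets2* null than in *ErbB2* fibroblasts with *Ets2*, at 6.33 against 8.20, and at 6.73 and 7.19 in normal fibroblasts. Of 14 genes that interconvert retinol and retinal, *Adh1*, an alcohol dehydrogenase, passed once. It was 2.46-fold higher in *ErbB2* than in normal fibroblasts without *Ets2*. *Rdh10*, the main retinol dehydrogenase of the embryo, did not pass, with differences of 0.65 and -0.97 in the Ets2 comparisons. Of 3 measured genes of degradation and other binding, *Fabp5*, a fatty acid binding protein that can also carry retinoic acid, was 2.14-fold lower without *Ets2* in *ErbB2* fibroblasts.

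Genes known to respond to retinoic acid were mixed. Of 13 measured, 1 was 2-fold higher without *Ets2* in normal fibroblasts, *Rarres1*, a membrane protein induced by a synthetic retinoid. It was at 7.33, 8.70, 7.50 and 7.08. Another 2 were lower without *Ets2* in *ErbB2* fibroblasts, *Rarres2*, the chemoattractant chemerin, by 5.36-fold and *Tgm2*, tissue transglutaminase, by 2.67-fold. Over all genes 0.621% passed higher in the normal and 1.74% lower in the *ErbB2* comparison. *Rarres2* was at 9.76, 9.13, 11.34 and 8.92, and so also 2.99-fold higher in *ErbB2* than in normal fibroblasts with *Ets2*. *Tgm2* was at 12.20, 12.69, 12.21 and 10.79. The probe sets of *Rarres2* and *Tgm2* may also bind other transcripts. *Thbd*, thrombomodulin, was at 8.60, 9.37, 7.79 and 7.20, and 4.48-fold lower in *ErbB2* than in normal fibroblasts without *Ets2*. *Rarres1*, *Tgm2* and *Thbd* shared with the 4 retinoid genes the highest level in normal *Ets2* null and the lowest in *ErbB2* *Ets2* null fibroblasts. These ends were found in 4 of the 9 genes, 3 of the 13 responsive genes and 7.21% of all genes, without a filter on level. Among genes at log2 6 or more on an array that spanned 2-fold or more, 24.5% had these ends. Of the 9 genes, 7 met that filter, and 4 of those had them. The pattern was taken from the 9 genes themselves, so nothing is read from their share or from that of the responsive genes.

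**Figure D3:**
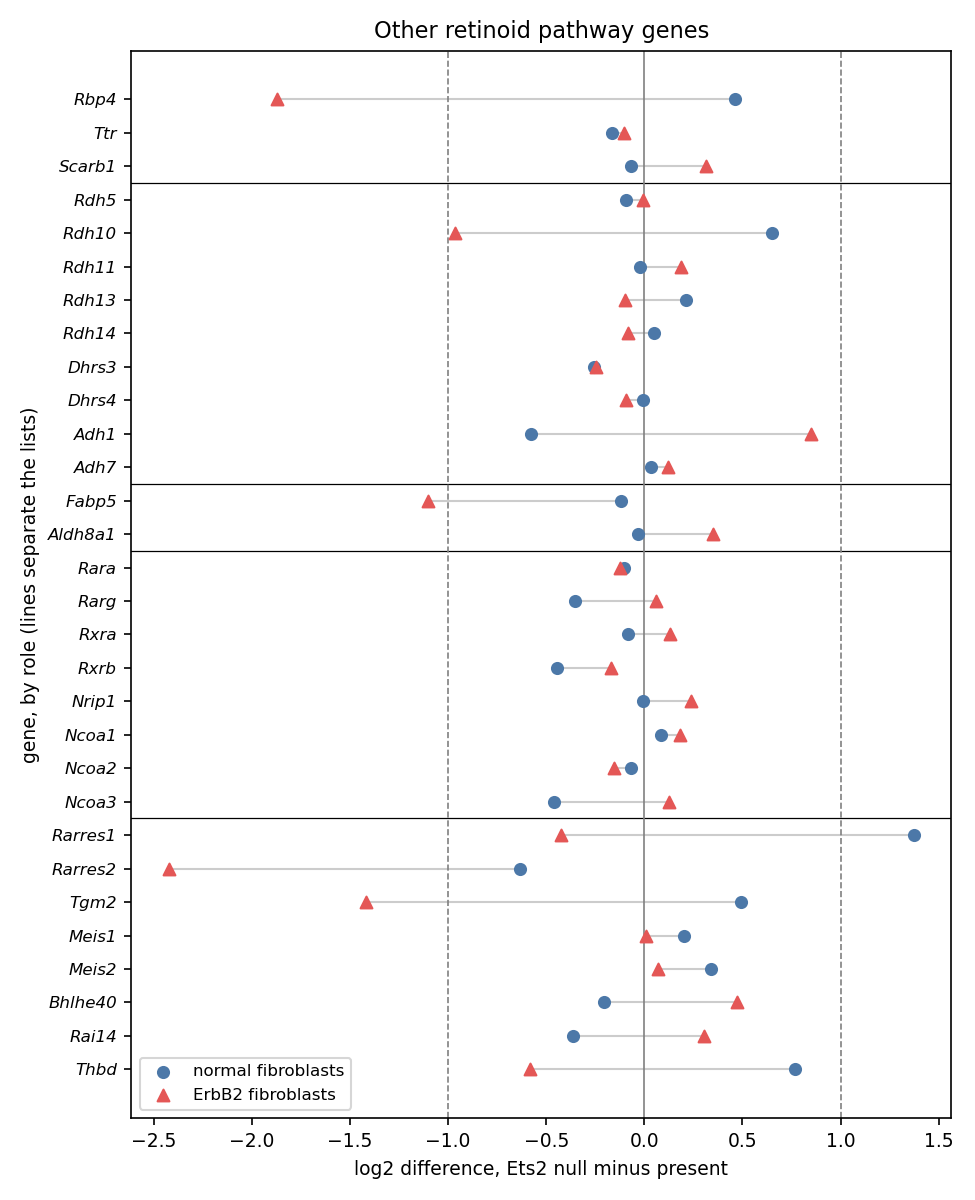
Ets2 comparison on the log2 scale (null minus present, x axis) for the 30 other retinoid genes at log2 6 or more on an array (y axis, in blocks from uptake and transport at the top to responsive genes at the bottom), in normal (circles) and *ErbB2* (triangles) fibroblasts, with dashed lines at 2-fold. The block of receptors and coregulators lies within 2-fold, and *Rbp4*, *Fabp5*, *Rarres2* and *Tgm2* lie beyond -1 in *ErbB2* fibroblasts.

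Markers of other cells differed between these cultures, and in cultured cells fewer cells of a type and less RNA per cell cannot be told apart. The paper reports that vimentin staining showed its mammary cultures to be highly enriched for fibroblasts, with images from another tumor model. It also lists *Krt8*, *Krt18* and *Krt14* as higher without *Ets2* in normal fibroblasts. Epithelial cells are of interest because they also express *ALDH1* genes. Of 16 luminal markers 6 were 2-fold higher and none lower in normal *Ets2* null fibroblasts, and 8 were lower and none higher in *ErbB2* *Ets2* null fibroblasts. Their summed level, on the log2 scale, was 10.35, 11.64, 11.36 and 9.94 in the order normal with and without *Ets2* and *ErbB2* with and without *Ets2*. Of 7 basal markers 4 were higher in the former and 3 lower in the latter, and their summed level was 8.31, 9.83, 9.45 and 8.30. Over all genes 0.621% passed higher in normal and 1.74% lower in *ErbB2* fibroblasts. With the higher array at log2 6 or more, 5 of 8 luminal and 3 of 4 basal markers passed in normal fibroblasts, against 1.47% of all such genes. In *ErbB2* fibroblasts 6 of 9 luminal and 1 of 3 basal markers then passed, against 3.28%. *Krt18*, a luminal keratin, was at 5.21, 8.78, 8.52 and 5.01, *Krt8*, its partner, at 6.65, 9.73, 9.25 and 6.15, *Krt14*, a basal keratin, at 5.54, 8.27, 8.26 and 4.93, and *Dsp*, a desmosome protein, at 4.30, 6.64, 5.99 and 3.82. Of the luminal markers, *Cdh1*, *Cldn7*, *Elf5*, *Ehf*, *Esrp1*, *Csn2* and *Csn3* stayed below log2 6 on every array, as did *Krt17*, *Trp63* and *Oxtr* among the basal ones. Between *ErbB2* and normal fibroblasts with *Ets2*, *Aldh1a1*, *Aldh1a7*, *Cyp26b1* and *Rarb* differed by 0.01, 0.15, 0.20 and 0.18 on the log2 scale. In that comparison 7 of the 16 luminal markers were 2-fold higher, against 0.83% of all genes, and 9 were within 2-fold, with a median difference of 0.52. They ranged from -0.44 for *Krt19* to 3.31 for *Krt18*, and of the basal markers 3 of 7 were 2-fold higher, with *Krt5* at 0.62. *Epcam*, at 0.02, was read on a probe set that may also bind other transcripts, as were *Krt14* and *Dsp*. The authors list another *Epcam* probe set as higher without *Ets2* in normal fibroblasts, so its value here is uncertain. The 4 retinoid genes shared their highest and lowest arrays with 6 of the 16 luminal and 4 of the 7 basal markers, and with 7.21% of all genes. These 4 genes reached log2 6 and spanned 2-fold or more, and of all genes that did so 24.5% had these ends. The 6 luminal markers include *Esrp1*, below log2 6 throughout, and *Cldn3*, which spanned 0.50, and the basal ones include *Krt17*, also below log2 6. *Aldh1a2* and *Crabp2*, unlike these 4 retinoid genes, were lower without *Ets2* in normal and higher in *ErbB2* fibroblasts. The part of epithelial cells in the levels of the retinoid genes was not tested.

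**Figure D4:**
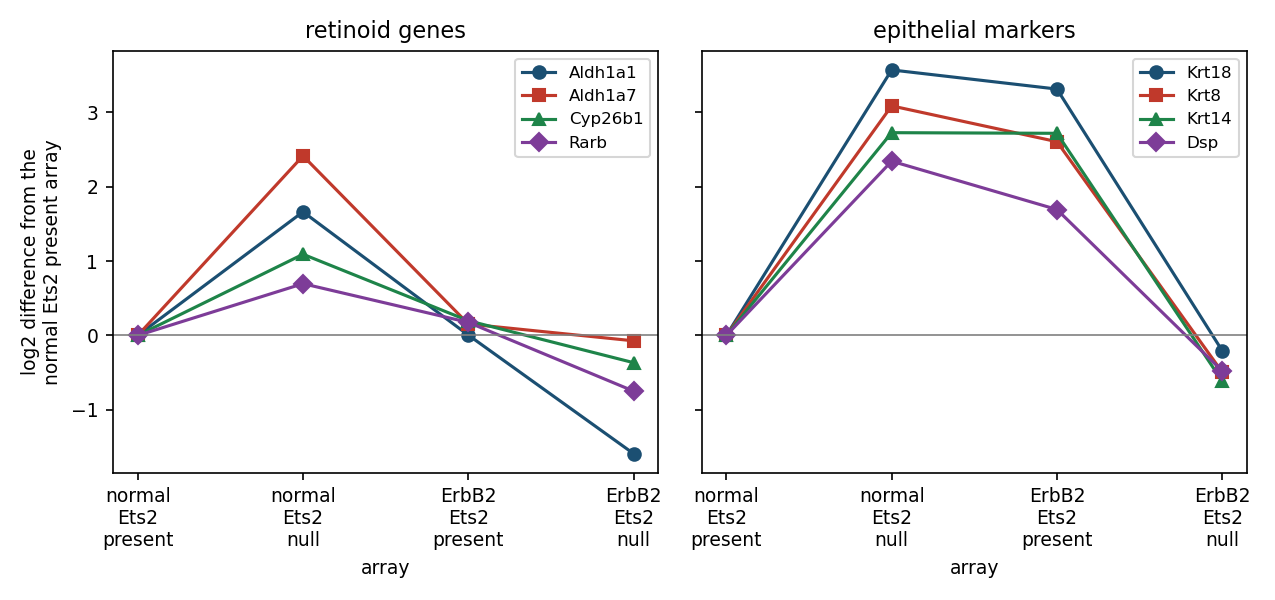
Log2 difference from the normal *Ets2* present array (y axis) on each of the 4 arrays (x axis) for 4 retinoid genes (left) and 4 epithelial markers (right, the 2 of widest range in each epithelial list), with lines joining the values of a gene. Both sets are high in normal *Ets2* null fibroblasts, and in *ErbB2* fibroblasts with *Ets2* these 4 markers are 1.69 to 3.31 above the reference while the retinoid genes are within 0.20 of it. Not drawn are the 9 of 16 luminal and 4 of 7 basal markers that were within 2-fold of the reference there.

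Fat and myeloid markers also differed. Of 6 measured adipocyte markers *Pparg*, the adipogenic receptor, was at 7.74, 9.53, 9.20 and 8.53 and *Fabp4*, a fatty acid carrier, at 10.47, 11.34, 11.06 and 10.37, while *Adipoq*, *Lep* and *Lipe* stayed below log2 6, and the summed level was 10.78, 11.75, 11.47 and 10.82. *Pparg* was the 1 adipocyte marker past 2-fold, higher without *Ets2* in normal fibroblasts and higher with *ErbB2* where *Ets2* was present. All 12 macrophage markers reached log2 6, with a summed level of 13.12, 12.83, 13.99 and 12.78. Of them, 6 were 2-fold lower without *Ets2* in *ErbB2* fibroblasts, with *Cd68*, a lysosomal protein of macrophages, at 8.67, 8.70, 10.56 and 8.21, and *C1qa*, of complement, at 8.38, 6.61, 9.49 and 8.99. Of 8 endothelial markers, *Emcn* was at 7.85, 6.67, 7.01 and 5.99 and *Pecam1* at 6.54, 5.16, 5.98 and 5.50, *Tek* and *Tie1* stayed below log2 6, and the summed level was 9.90, 9.24, 9.66 and 9.0, with 2 lower without *Ets2* in normal and 1 in *ErbB2* fibroblasts. Among fibroblast markers *Lum*, a matrix proteoglycan, was at 7.77, 6.71, 9.47 and 8.45 and *Fap*, a membrane protease of activated fibroblasts, at 6.83, 5.85, 7.62 and 7.79, and of the 12, 2 were lower without *Ets2* in normal and 1 in *ErbB2* fibroblasts. Of all genes, 0.621% passed higher and 0.357% lower without *Ets2* in normal, and 1.74% lower in *ErbB2* fibroblasts. With *Ets2* present, 0.83% passed higher with *ErbB2*. The widest mesothelial ranges were those of *Bnc1*, between 3.45 and 4.47, and *Upk3b*, between 4.89 and 5.42. The part of these cells in the retinoid levels was not tested.

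The genes whose levels ran most like those of *Aldh1a2* over the 4 arrays were *Dkk2*, *Ecrg4*, *Scd2*, *Plac8* and *Col8a1*, with distances of 0.37 to 0.72 on the log2 scale after each gene was centred on its mean, among 10935 genes at log2 6 or more on an array. *Dkk2*, a secreted regulator of Wnt signaling, was at 7.21, 6.33, 4.90 and 7.23. *Scd2*, a fatty acid desaturase, was at 11.73, 10.64, 10.34 and 12.21. Both were thus lowest in *ErbB2* fibroblasts with *Ets2*. For *Aldh1a7* the nearest genes were *Dynap*, *Crct1*, *Plin4*, *Aard* and *Sorbs2*, at distances of 0.26 to 0.69. *Plin4*, a coat protein of lipid droplets, was at 6.38, 8.33, 6.54 and 6.60, and *Crct1*, a gene of keratinizing epithelium, was at 7.12, 9.02, 6.96 and 6.42. With 4 arrays, such nearness picks genes with the same high or low array and says nothing more.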

How the data were processed

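Microarray profiling used 4 Affymetrix mouse whole-genome arrays, 1 per genotype. The authors deposited log2 expression values for 45101 probe sets, made by the Robust Multichip Average (RMA), which corrects background, quantile-normalizes and summarises probes. Which software ran it is not given in the sources. Because RMA equalises the distributions of the arrays, a change common to most genes cannot be seen. Probe sets with exactly 1 symbol in the platform annotation (34958, covering 18194 genes) were used, and a gene was read from its probe set with the highest mean. Probe sets with several symbols (932) or unnamed here (9211) were left out. Array differences were taken with pandas 2.3.3 (numpy 2.4.6, Python 3.11.15), in steps tested on simulated data. Sequences came from RefSeq (GRCm38.p6) and were aligned with Biopython 1.88. With 1 array per genotype no test was run, and a difference of 1 or more on the log2 scale (2-fold) was counted. The members and the lists (13 in all) were chosen with earlier results of these data known. The named genes were every member, list genes at log2 6 or more that passed 2-fold (at most 5 per list, by range), *Rara*, *Rarg* and *Rxra*, the 5 genes nearest to *Aldh1a2* and *Aldh1a7*, and of each marker list the 2 with the widest range. Alternatives covered the threshold, the probe set, a floor at log2 6, cross-hybridising probe sets and the scaling.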

Additional observations from a re-analysis of the deposited data

Results flagged for a closer look

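Among the 9 genes, *Aldh1a1* stood out because its Ets2 difference was past 2-fold in opposite directions in normal and *ErbB2* fibroblasts. The differences were 1.66 and -1.59 on the log2 scale, which differ by -3.26, and this ranked 26 from the lowest of 18194 genes. The pattern was not particular to *Aldh1a1*. Some epithelial markers had it at larger size, as *Krt8*, at 3.09 and -3.10, and *Krt18*, at 3.57 and -3.52, while other epithelial markers did not. Each value rests on 1 array against 1, and the difference between the comparisons was not tested.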

How the results depend on the processing

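Of 270 values recomputed under the alternatives, 259 moved by less than the robust SD over all genes (for a count, by no more than 1.5 times), and no difference past 2-fold changed sign. Among those under 2-fold, 3 values did. The Ets2 difference of *Aldh1a3* in normal fibroblasts, -0.13, was 0.07 as the mean of its probe sets and 0.21 on the probe set with the largest difference, and the oncogene difference of *Aldh1a1* with *Ets2*, 0.01, was -0.04 under quantile normalization. At 4-fold in place of 2-fold the counts of retinoid genes were 1 in normal (*Aldh1a7*) and 1 in *ErbB2* fibroblasts (*Aldh1a2*) for the Ets2 comparisons, and 0 and 2 for the oncogene comparisons with and without *Ets2*. With the higher array required at log2 6 or more, the median of the genes left was 0.46 for the Ets2 comparison in normal fibroblasts and -1.07 for the oncogene comparison without *Ets2*. Without *Aldh1a2* and *Aldh1a7*, an alternative added after the data were seen, the oncogene comparison with *Ets2* had 0 genes past 2-fold. Scaling moved no gene by more than 0.09, and *Crabp1* in *ErbB2* fibroblasts was the 1 call lost, under quantile normalization. Of the 9 genes, 8 have a single probe set, so that the choice of probe set bears on *Aldh1a3* alone. Leaving out probe sets of the cross-hybridising kind removed none of the 11, and the floor drops genes without changing their values. Many of the 259 were thus fixed in advance, and their number is no measure of how firm the results are. No replicate could be left out, and the number of arrays limits the precision of every value.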

Other observations

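Of 14 aldehyde dehydrogenases measured outside the retinoid group, none passed 2-fold without *Ets2* in normal fibroblasts and 1 did in *ErbB2* fibroblasts, *Aldh1l1*, an enzyme of folate metabolism, which was 1.12 higher on the log2 scale and stood at 6.48, 6.18, 5.95 and 7.07 over the arrays in the order normal with and without *Ets2* and *ErbB2* with and without *Ets2*. The median differences of the 14 were -0.08 and -0.01, with members on both sides. Over the 4 arrays *Aldh5a1* spanned 0.87, *Aldh1l2* 0.72 and *Aldh18a1* 0.71 on the log2 scale. *Aldh2*, the mitochondrial enzyme of ethanol metabolism, was between 9.40 and 9.54 on the 4 arrays.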
